A study of Mus musculus with 2 samples.

Results

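This report describes 10 genes of the chemokine system that draw or mark monocytes: the CC chemokines *Ccl2*, *Ccl7*, *Ccl12*, *Ccl8*, *Ccl6*, *Ccl9* and *Ccl24*, the CXC chemokine *Pf4*, and the receptors *Ccr2* and *Cx3cr1*. They were taken by symbol from the 27998 genes counted, and each symbol matched 1 gene. The questions were which monocyte and macrophage states of the tumor carried each transcript, which were found together in single cells, and whether their levels differed between both libraries.

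Chemokines are small secreted proteins that guide leukocytes through G protein-coupled receptors. CCR2 on classical monocytes binds CCL2, CCL7 and CCL12, and this axis brings monocytes from bone marrow and blood into inflamed tissue and tumors, where they mature into macrophages. Mouse CCL8 acts mainly through CCR8, CCL6 and CCL9 through CCR1, and CCL24 (eotaxin-2) through CCR3. PF4 (CXCL4) is best known from platelets and is also made by macrophages. CX3CR1, the fractalkine receptor, is high on nonclassical monocytes.

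The cells were CD45+ leukocytes, sorted for single-cell RNA-Seq from tumors of Lewis lung carcinoma (LLC), 14 days after LLC cells had been placed under the skin. LLC is a tumor line of the mouse lung and was grown in C57/BL6 mice, its strain of origin, with an age of 10 weeks on the labels. The control genotype was miR-21fl/fl, with the microRNA gene flanked by loxP sites. The other was LysMCre;miR-21fl/fl, in which Cre from the lysozyme M locus deletes miR-21 mainly in macrophages and granulocytes, so that both groups shared the floxed alleles. Each genotype was 1 library from a pool of 3 mice, so that no replicate exists and no p-value is given. All intervals below are 95% intervals for counting error only. They do not cover differences between cells, mice or pools.

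The titles of the libraries (wt and cko) and the descriptions of their source name the genotypes in opposite ways, so each library is named below by its title alone, as labelled wt or labelled cko. *Lyz2*, the gene that carries the Cre insertion, was at 27534 CPM (UMIs of a gene scaled to 1000000 UMIs of the cells) in interferon-low classical monocytes labelled wt and at 14387 in those labelled cko, which follows the titles. One protocol text also names a gate for CD11b+, MHCII+ and F4/80+ macrophages, whereas the design names CD45 alone, and 196 and 228 lymphoid cells were present. The deposited cells numbered 2449 labelled wt and 2718 labelled cko, with medians of 8359 and 8247 UMIs and 5 cell barcodes in common. After filtering, 2004 of 2397 cells labelled wt (83.6%) and 2155 of 2646 labelled cko (81.4%) were monocytes or macrophages.

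Cells were assigned to 8 monocyte and macrophage states from UMIs of other genes, none of them a member. Classical monocytes had at least 5 *Ly6c2* UMIs and few C1q UMIs, and were split at 20 UMIs of 8 interferon-response genes. Nonclassical monocytes had *Ace* or *Treml4*, and transitional cells had both *Ly6c2* and C1q. C1q macrophages, with at least 10 C1q UMIs, were divided into those with at least 3 UMIs of *Vcam1* and *Folr2* and no fewer than of the next set, those with *Cd300e*, *Clec4b1* or *Pparg*, and the others. Cells under both cuts, without *Ace* or *Treml4*, formed the last state (Ly6c2-low C1q-low). The interferon split is a cut through a range: 124 of 427 classical monocytes labelled wt and 96 of 411 labelled cko had 10 to 39 such UMIs. Gates on UMIs favour deep cells, and Vcam1/Folr2 macrophages had medians of 19192 and 16418 UMIs against 8976 and 8627 in other C1q macrophages. Levels are therefore given as CPM within a state, and shares of cells after every cell was thinned to 3000 UMIs. The chemistry reads the 3′ end of a transcript, so UMIs are not scaled by length, and the text compares 1 gene between states.

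The CCR2 ligands *Ccl2*, *Ccl7* and *Ccl12* were highest in Vcam1/Folr2 macrophages of both libraries. *Ccl2* reached 600.2 CPM (interval 574 to 627) in these cells labelled wt and 616 CPM (590 to 642) in those labelled cko. Transitional cells followed with 452 and 411 CPM. Nonclassical monocytes were lowest, at 49.5 and 34.6 CPM, so the mean level differed 14.5-fold between the highest and the lowest state. The ranges of both libraries did not overlap between Vcam1/Folr2 macrophages, transitional cells and other C1q macrophages, but those of other C1q macrophages and interferon-high classical monocytes, and of the latter and Cd300e/Clec4b1/Pparg macrophages, overlapped. With gates read from cells thinned to 3000 UMIs, the highest state of *Ccl2* was instead the interferon-high classical monocytes.

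*Ccl7* had a steeper range. Its level was 965 CPM labelled wt and 785 CPM labelled cko in Vcam1/Folr2 macrophages, against 28.2 and 18.8 CPM in nonclassical monocytes. Below the top state the order was not stable, because transitional cells held 585 CPM labelled wt and 177 CPM labelled cko. *Ccl12*, which has no human counterpart of the same name, was at 598 and 739 CPM in Vcam1/Folr2 macrophages and at 9.2 and 10.9 CPM in nonclassical monocytes. This is near the 6.8 and 9.0 CPM of *Ccl12* in lymphoid cells, where free RNA can give UMIs of macrophage transcripts.

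At equal depth the share of cells with *Ccl2* was also highest in Vcam1/Folr2 macrophages, whereas interferon-high classical monocytes (37.3% and 33.3%) came before transitional cells (34.6% and 32.3%), with intervals that overlapped. Of Vcam1/Folr2 macrophages, 51.8% labelled wt (interval 44.0% to 59.5%) and 54.6% labelled cko (47.4% to 61.8%) had a *Ccl2* UMI among 3000, against 82.9% and 82.0% before thinning. The corresponding shares in interferon-low classical monocytes were 10.6% and 13.7%. Lymphoid cells, which should lack the gene, had 3.1% and 2.6%, with median depths of 6127.5 and 6765 UMIs against 8371 and 8475 in interferon-low classical monocytes. For *Ccl7*, the interferon-low classical monocytes were at 3.3% and 4.0%, against 4.1% and 2.2% of lymphoid cells. In CPM they were at 26.4 and 60.1, or 13.6 and 24.9 without the top cells, against 13.6 and 7.4 in lymphoid cells. Labelled wt, *Ccl7* without the top cell was thus at the level of lymphoid cells, and labelled cko above it.

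*Ccl8* and *Pf4* were also highest in Vcam1/Folr2 macrophages. *Ccl8* was at 1845 CPM (interval 1799 to 1892) labelled wt and at 901 CPM (870 to 934) labelled cko in this state, and the next state, Cd300e/Clec4b1/Pparg macrophages, was at 128 and 91.3 CPM. The mean over libraries was 98.9-fold above that of nonclassical monocytes, whose 13.8 and 14.0 CPM lay within the range of lymphoid cells (14.9 and 5.3 CPM). Vcam1/Folr2 macrophages held 89.1% of all monocyte and macrophage *Ccl8* UMIs labelled wt and 77.0% labelled cko. They were only 170 and 194 cells, but deep ones, with medians of 19192 and 16418 UMIs. In this state 1 cell held 13.5% of the *Ccl8* UMIs labelled wt, and 1 cell 13.7% labelled cko. Without the *Ccl8* UMIs of these cells the levels were 1595 and 778 CPM, outside the intervals for counting error.

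*Pf4* reached 1925 and 1452 CPM in Vcam1/Folr2 macrophages, and 81.8% and 73.2% of these cells had a UMI at equal depth. Other C1q macrophages followed with 913 and 516 CPM. *Pf4* was also present in Cd300e/Clec4b1/Pparg macrophages (449.5 and 247 CPM) and in transitional cells (334 and 282 CPM). Its low levels in monocytes rested on few cells. In interferon-high classical monocytes labelled wt, 1 cell held 75.5% of all *Pf4* UMIs, and in interferon-low classical monocytes labelled cko 1 cell held 68.3%.

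**Figure D1:**
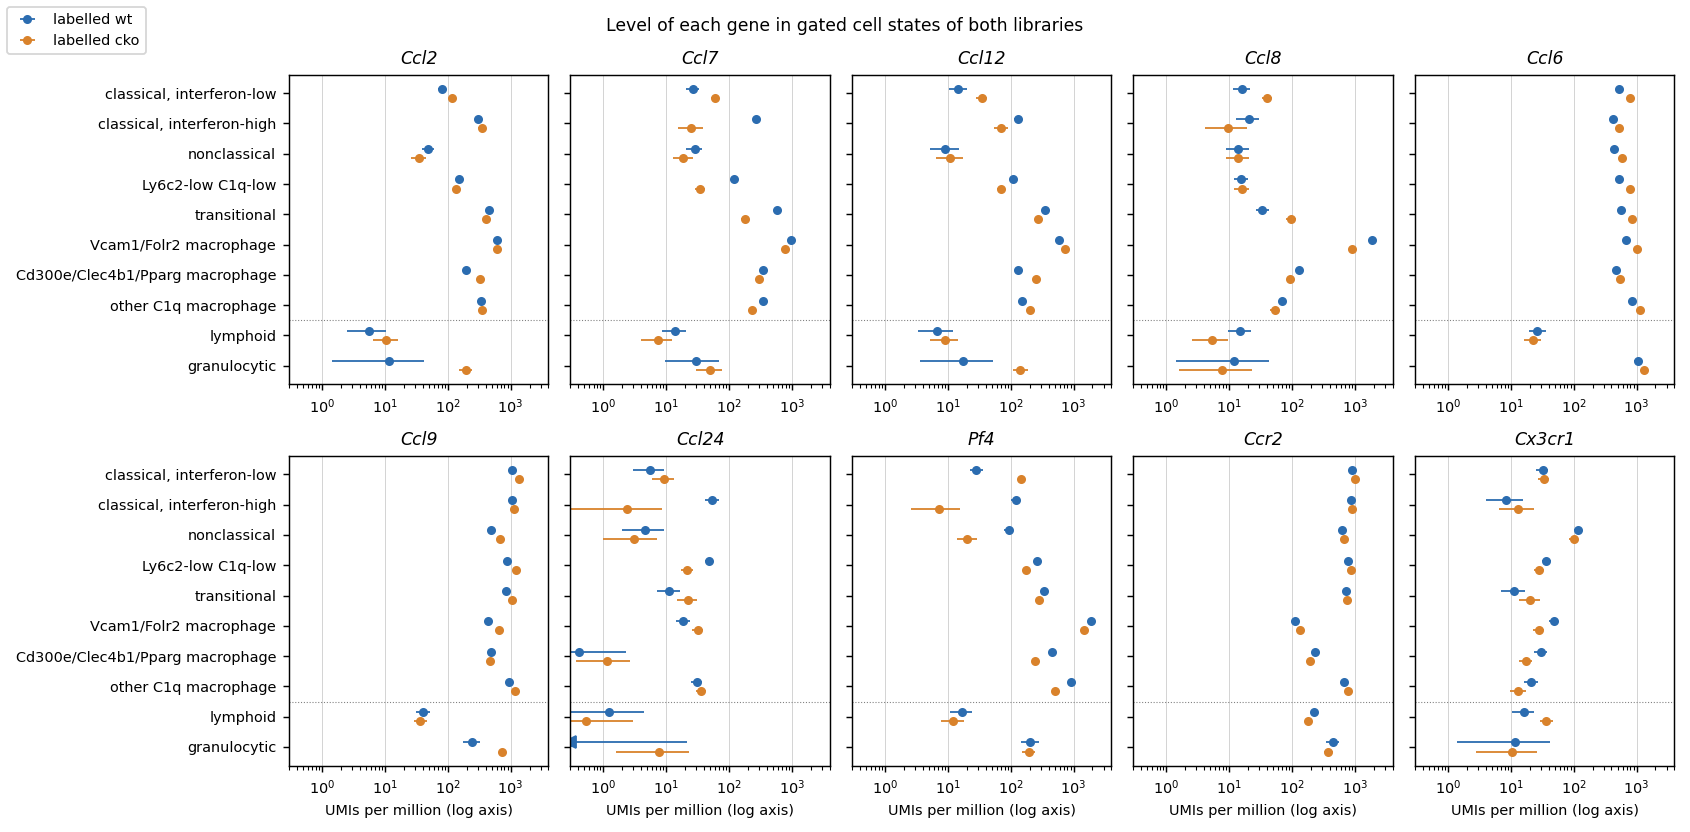
Level of each of the 10 genes (CPM, log axis) in 8 monocyte and macrophage states and, below the dotted line, in lymphoid and granulocytic cells. Points are the library labelled wt (blue) and labelled cko (orange), bars are 95% Poisson intervals for counting error, and an arrowhead marks a level of 0. *Ccl8* stands out in Vcam1/Folr2 macrophages at 1845 and 901 CPM, whereas *Ccl6* and *Ccl9* are present in all 8 states.

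The CCR1 ligands *Ccl6* and *Ccl9* were spread over every state. *Ccl6* ran from 845 CPM labelled wt and 1152 labelled cko in other C1q macrophages down to 430 and 519 CPM in interferon-high classical monocytes, a 2.1-fold range, and no state was separated from its neighbour in the order. It was also high in granulocytic cells, at 1061 and 1303 CPM in 32 and 72 cells. Lymphoid cells were at 26.7 and 22.7 CPM. Dendritic cells were at 70.5 and 85.2 CPM, so *Ccl6* was high in monocytes, macrophages and granulocytic cells and low in dendritic and lymphoid cells.

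*Ccl9* was highest in classical monocytes. The interferon-low state held 1066 and 1371 CPM, and 78.7% and 87.2% of them had a UMI at equal depth. Vcam1/Folr2 macrophages were at 437 and 664 CPM and Cd300e/Clec4b1/Pparg macrophages at 488 and 479 CPM. Neighbours among the first 5 states overlapped, although both classical states lay above the fifth, the transitional cells. These were clear of the sixth, the nonclassical monocytes, with 837 and 1054 CPM against 494 and 691 CPM.

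*Ccl24*, the CCR3 ligand, was rare. It had 460 UMIs labelled wt and 386 labelled cko over all monocytes and macrophages, and no state exceeded 54.1 CPM. Its UMIs were concentrated in few cells: in Ly6c2-low C1q-low cells, 1 cell held 26.4% labelled wt and 45.9% labelled cko. No more than 3.3% of cells had a UMI at equal depth in any state, so its order over states was not resolved at this depth.

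The receptors *Ccr2* and *Cx3cr1* were highest in monocytes. *Ccr2* was highest in classical monocytes, at 881 CPM (interval 845 to 918) labelled wt and 1008 CPM (971 to 1045) labelled cko in the interferon-low state. Transitional cells kept 716 and 748 CPM and other C1q macrophages 661 and 763 CPM. Cd300e/Clec4b1/Pparg macrophages were at 233 and 195 CPM and Vcam1/Folr2 macrophages at 112 and 134 CPM, 7.7-fold below the highest state. The macrophages with most CCR2 ligand thus had the least *Ccr2*, but the order over the other states was not inverse, since transitional cells were high in both and nonclassical monocytes, lowest in the ligands, had 611 and 656 CPM of *Ccr2*. *Cx3cr1* was highest in nonclassical monocytes, at 116 and 100.1 CPM. Of these cells 25.4% and 24.6% had a *Cx3cr1* UMI at equal depth, against 70.3% and 69.4% with a *Ccr2* UMI. For *Cx3cr1*, Vcam1/Folr2 macrophages came second, at 48.2 and 28.0 CPM, and overlapped with the next state. In interferon-high classical monocytes *Cx3cr1* was lowest, at 8.5 and 13.2 CPM, under the 16.1 and 37.0 CPM of lymphoid cells.

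Within the C1q macrophages, cells were also divided by their own *Ccr2* UMIs at equal depth. Of the cells with 0 *Ccr2* UMIs, 34.7% labelled wt and 21.4% labelled cko had *Ccl8*. With 2 or more *Ccr2* UMIs the shares were 6.0% and 6.7%. *Ccl6* went the other way, from 51.5% and 63.9% of cells to 66.1% and 80.1%. The share of Vcam1/Folr2 macrophages moved with this division, from 44.7% to 7.8% labelled wt and from 35.7% to 6.7% labelled cko, and its part in the difference was not tested.

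Cells outside the monocytes and macrophages carried some members. The 7 and 15 cells with keratin, *Epcam*, *Col1a1* or *Pecam1* UMIs (tumor or stroma) had 1173 CPM of *Ccl2* labelled wt (interval 1011 to 1353) and 693 CPM labelled cko (633 to 757). Labelled wt this was above the Vcam1/Folr2 macrophages, whereas labelled cko the intervals overlapped. A CD45+ sort should remove such cells. *Krt8* was at 586 and 466 CPM, in 5 of 7 and 15 of 15 cells. *Ptprc*, the gene of CD45, was at 74.8 and 15.4 CPM, in 5 of 7 and 9 of 15 cells, against 265 and 284 CPM in Vcam1/Folr2 macrophages. In the tumor or stroma cells *Pecam1* had 11 and 2 UMIs, *Epcam* 3 and 0, and *Col1a1* 0 in both libraries, and *C1qa* was at 143 and 40.6 CPM. *Ccl7* was at 268 and 196 CPM there. *Ccl12* was at 0 UMIs in the cells labelled wt, which allows a level of up to 18.7 CPM, and at 9.8 CPM in those labelled cko. The group is small, and 1 cell held 45.2% and 32.5% of its *Ccl2* UMIs. Without the *Ccl2* UMIs of that cell the levels were 642 CPM labelled wt and 468 CPM labelled cko, against 539 and 552 CPM in Vcam1/Folr2 macrophages without theirs.

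*Ccr2* was present in lymphoid cells at 222 and 180 CPM. A split chosen after the values were seen placed its highest level in the 49 and 42 cells with *Ncr1* or *Klrb1c* and no CD3 gene, as in NK cells. These held 511 and 412 CPM, and 65.3% and 52.4% of them had a UMI at equal depth. Cells with CD3 genes only were at 114 and 101 CPM. *Cx3cr1* showed the reverse, with 27.6 and 50.8 CPM in CD3 cells, whereas the NK-type cells had 2 UMIs labelled wt and 0 labelled cko.

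Co-expression in single cells was measured as the number of cells with UMIs of both genes over the number given by the product of their shares within each state, summed over the 8 states at 3000 UMIs a cell. A ratio of 1 means no association beyond the state. *Ccl7* and *Ccl12* had ratios of 1.91 labelled wt and 2.02 labelled cko, in 126 and 138 cells. *Ccl2* and *Ccl7* had 1.88 and 1.79, in 203 and 184 cells, and *Ccl2* and *Ccl12* had 1.84 and 1.74. The numbers of cells with 2 CCR2 ligands were thus above those their states alone gave. Pooled over states, 42.9% of cells with *Ccl2* labelled wt and 35.9% labelled cko also had *Ccl7*, against 7.6% and 6.9% without *Ccl2*. These shares include the differences between states. Within Vcam1/Folr2 macrophages they were 78.4% and 62.3% of cells with *Ccl2*, against 37.8% and 29.5% without it.

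*Pf4* had ratios of 1.51 and 1.52 for *Ccl7* and 1.45 and 1.45 for *Ccl12*. Those of *Ccl8* were 1.14 and 1.32 for *Ccl7*, 1.21 and 1.23 for *Pf4*, and 1.04 and 1.11 for *Ccl2*. Sums for *Ccl8* rest mostly on Vcam1/Folr2 macrophages, where high shares leave every ratio little room. Within that state, *Ccl8* had 1.09 and 1.24 with *Ccl12*, and 0.98 and 1.18 with *Ccl7*. The pairs of CCR2 ligands had 1.17 and 1.27 (*Ccl2* and *Ccl12*), 1.33 and 1.31 (*Ccl2* and *Ccl7*) and 1.26 and 1.60 (*Ccl7* and *Ccl12*). The correlation of log levels over its cells was 0.13 to 0.18 for both *Ccl8* pairs and 0.33 to 0.66 for the CCR2 ligand pairs, as a description of 170 and 194 cells. *Ccl8* and *Ccr2* were below the product of their shares, with 0.72 and 0.82.

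The association of the CCR2 ligands was not a property of 1 state. For *Ccl2* and *Ccl7* the ratio was above 1 in all 8 states of both libraries, with 1.33 and 1.31 in Vcam1/Folr2 macrophages, 2.42 and 2.29 in other C1q macrophages, 3.43 and 1.8 in Ly6c2-low C1q-low cells, and 2.82 and 5.05 in interferon-low classical monocytes. Few cells had both genes in some states, with 3 and 9 in interferon-low and 13 and 3 in interferon-high classical monocytes, and 3 and 1 in nonclassical monocytes. *Ccl6* and *Ccl9* had 1.1 and 1.07, but both genes were present in most cells, which leaves the ratio little room. Thinning does not even out cell size or quality within a state, and their part in these ratios was not tested.

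**Figure D2:**
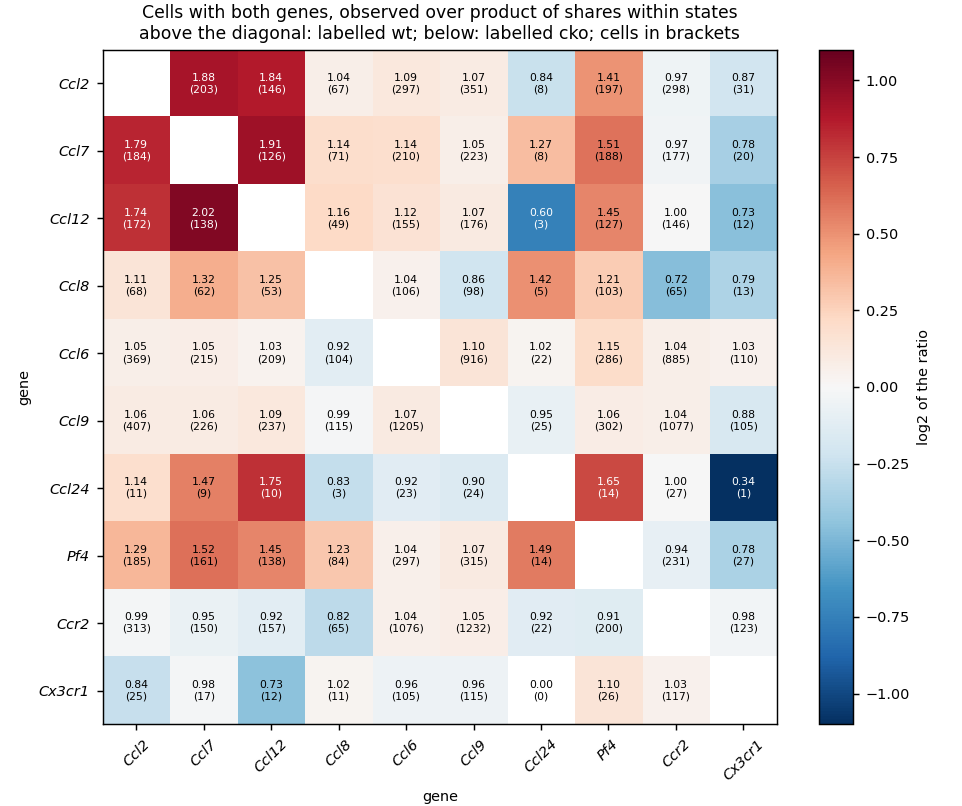
Cells with UMIs of both genes over the number given by the product of their shares within states, for each pair of the 10 genes at 3000 UMIs a cell. Values above the diagonal are the library labelled wt and below it the library labelled cko, brackets hold the number of cells with both genes, and color is the log2 of the ratio. The block of *Ccl2*, *Ccl7* and *Ccl12* lies between 1.74 and 2.02 in both libraries.

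At 3000 UMIs, 36.5% of Vcam1/Folr2 macrophages labelled wt (62 of 170) and 31.4% labelled cko (61 of 194) had 3 or 4 of *Ccl2*, *Ccl7*, *Ccl12* and *Ccl8*. In transitional cells 10.6% and 7.9% did, and in interferon-low classical monocytes 0.66% and 1.6%. None of the 196 and 228 lymphoid cells did, which allows shares of up to 1.53% and 1.32%. Cells with none of the 4 genes made up 11.8% and 18.6% of Vcam1/Folr2 macrophages but 80.4% and 78.8% of interferon-low classical monocytes. In the other C1q macrophage states 54.8% to 58.3% of cells had none.

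**Figure D3:**
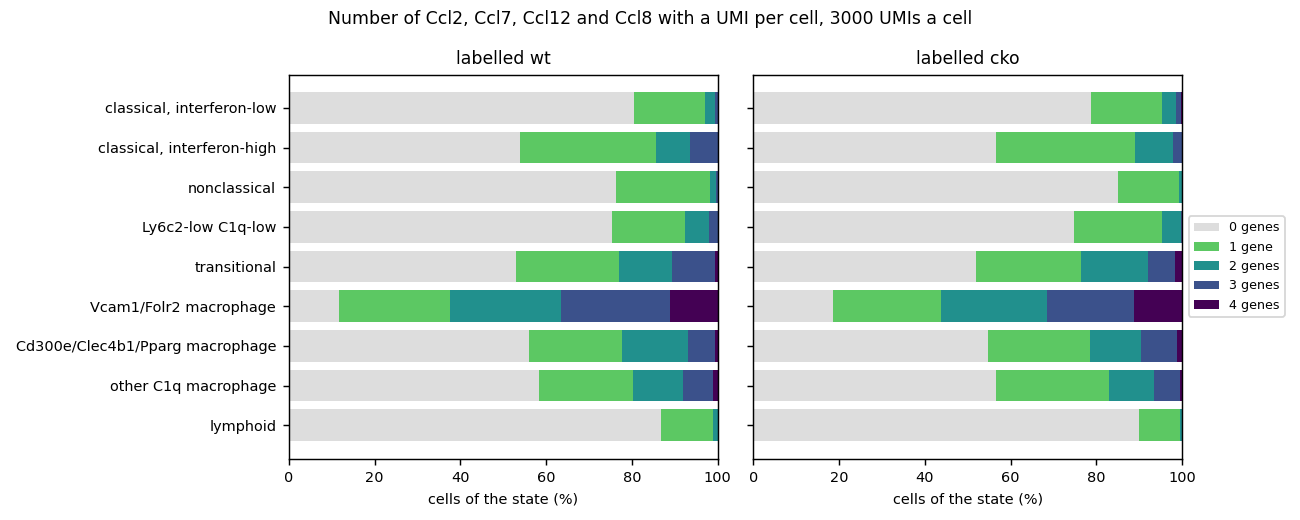
Share of cells (percent) in each state with 0 to 4 of *Ccl2*, *Ccl7*, *Ccl12* and *Ccl8* after thinning to 3000 UMIs, for the library labelled wt (left) and labelled cko (right). Vcam1/Folr2 macrophages have the darkest bars, with 36.5% and 31.4% of cells holding 3 or 4 of the genes.

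Genes most like each member were sought among 4461 genes with at least 1000 UMIs, by Pearson correlation of log levels over the 2004 and 2155 monocytes and macrophages. These cells share a library and differ in state and depth, so the correlations are descriptions. *Ccl2* was most like *Ccl7* (r = 0.66 labelled wt and 0.59 labelled cko) and *Ccl12* (0.59 and 0.56), and *Ccl7* and *Ccl12* had 0.62 and 0.63. *Pf4* came next for all 3 genes. *Pf4* itself was most like *Mrc1*, the mannose receptor of tissue macrophages (0.64 and 0.64), followed by *Ms4a7* and *Ccl7*.

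*Ccl8* was most like *Vcam1*, *Folr2* and *Gas6*, of which *Vcam1* and *Folr2* define the gate it was highest in. *Ccl6* and *Ccl9* were most like each other (0.42 and 0.48). *Ccl9* was followed by *F13a1*, the coagulation factor XIII subunit of monocytes, and *S100a10*. *Ccr2* was most like *S100a11*, *Plac8* and *S100a6*, and *Cx3cr1* like *Ear2*, *Eno3* and *Ace*, the last of which gates nonclassical monocytes. *Ccl24* had too few UMIs to enter.

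*Ccl2* was higher in classical monocytes with more interferon-response UMIs, in both libraries. With 0 to 4, 5 to 19, and 20 or more UMIs of the interferon-response genes it was at 61.7, 105 and 300.3 CPM labelled wt and at 54.6, 195 and 347 CPM labelled cko. Without the cell with most UMIs in each group the levels were 43.6, 64.9 and 272 CPM labelled wt and 42.8, 158 and 253 CPM labelled cko. Median depth was alike over these groups, from 8271 to 8850.5 UMIs. The shares of cells with *Ccl2* at equal depth were 9.5%, 11.9% and 37.3% labelled wt and 10.3%, 17.8% and 33.3% labelled cko.

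*Ccl12* went from 8.7 to 131 CPM labelled wt and from 13.2 to 70.9 CPM labelled cko between the lowest and the highest group, and from 7.3 to 89.7 and from 11.2 to 57.6 CPM without the top cells. *Ccl7* did not do the same in both libraries. It went from 12.3 to 266 CPM labelled wt but from 11.2 to 25.2 CPM labelled cko, with 117 CPM in the middle group and 40.9 CPM there without 1 cell. *Ccr2* stayed between 859 and 897 CPM labelled wt and between 890 and 1047 CPM labelled cko.

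In C1q macrophages the 3 CCR2 ligands were also higher with more interferon-response UMIs, and so was *Ccl8*. *Ccl2* was at 270, 387 and 689 CPM labelled wt and 273, 441 and 693 CPM labelled cko over the same 3 groups. *Ccl8* was at 514, 700 and 1400 CPM labelled wt and 163, 382 and 588 CPM labelled cko over these groups. Median depth went over them from 9612 to 17307 UMIs labelled wt and from 9511 to 15150 labelled cko, and the share of Vcam1/Folr2 macrophages from 20.9% to 41.1% and from 17.2% to 33.6%. Their part in these differences was not tested. In Ly6c2-low C1q-low cells *Ccl2* was at 67.5, 239.5 and 473 CPM labelled wt. Labelled cko it was at 91.9, 74.1 and 540 CPM there, so the middle group was not higher than the lowest.

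**Figure D4:**
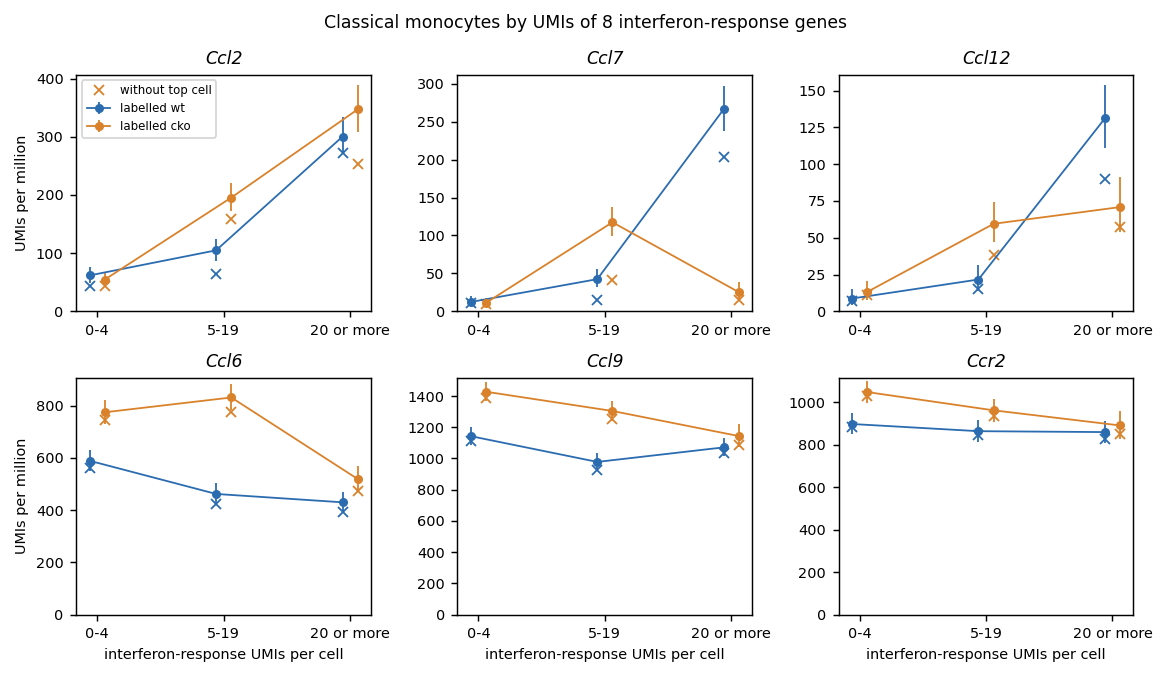
Level (CPM, linear axis from 0) of 6 genes in classical monocytes grouped by UMIs of 8 interferon-response genes, for the library labelled wt (blue) and labelled cko (orange), with 95% Poisson intervals. Crosses are levels without the cell with most UMIs in each group. *Ccl2* is highest with 20 or more of these UMIs in both libraries, at 300.3 and 347 CPM, and *Ccl7* only in that labelled wt.

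Between the libraries, levels were compared over all monocytes and macrophages as log2 ratios of labelled cko over labelled wt. Of the 10 members, 1 was higher by at least 0.32 on the log2 scale (*Ccl6*) and 5 were lower by as much (*Ccl7*, *Ccl8*, *Ccl24*, *Pf4* and *Cx3cr1*). Of all 9621 genes with at least 100 UMIs, 7.7% were past this fold higher and 3.31% lower. The median log2 ratio was −0.16 over the members and 0.03 over all genes. With 1 library per genotype, the difference between pools of mice cannot be told apart from the difference between genotypes.

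*Ccl6* was at 581 CPM labelled wt and 812 labelled cko, a log2 ratio of 0.48 (interval 0.45 to 0.52). It was higher labelled cko in all 8 states, with an interval above 0 in each. Its neighbour *Ccl9* was at 770.1 and 938 CPM, a log2 ratio of 0.28 (0.25 to 0.31), which did not reach 0.32. *Ccl9* was higher in 7 states and lower in Cd300e/Clec4b1/Pparg macrophages, where the ratio was −0.02 with an interval from −0.13 to 0.08.

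*Ccl8* was at 332 CPM labelled wt and 184 labelled cko, a log2 ratio of −0.86 (interval −0.91 to −0.80). Most of its UMIs were in Vcam1/Folr2 macrophages, where the ratio was −1.03 (−1.1 to −0.97), and at equal depth 48.8% of these cells labelled wt and 37.6% labelled cko had a *Ccl8* UMI. It was higher in 4 states and lower in 4, and without the top cells higher in 2 and lower in 6. *Ccl7* was at 350.4 and 247 CPM, with a ratio of −0.51 (−0.56 to −0.46), and lower labelled cko in 7 of 8 states. *Pf4* was at 603 and 429 CPM, with a ratio of −0.49 (−0.53 to −0.45), and also lower in 7 of 8 states. In both, the exception was the interferon-low classical monocytes, where 1 cell labelled cko held 58.6% of the *Ccl7* and 68.3% of the *Pf4* UMIs. Without the top cell of each library *Ccl7* was lower in 6 states, since its ratio in Cd300e/Clec4b1/Pparg macrophages went from −0.20 to 0.05.

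*Cx3cr1* was at 37.4 and 28.7 CPM (log2 ratio −0.38, interval −0.54 to −0.23) and *Ccl24* at 22.5 and 17.7 CPM (−0.35, −0.55 to −0.15). Neither stayed past 0.32 with means over cells, at −0.29 and −0.21. *Ccl24* also fell short with doubled gates (−0.312) and in cells with at least 5000 UMIs (−0.319), and it was higher in 5 of 8 states. *Ccl2*, *Ccl12* and *Ccr2* differed least. Their ratios were 0.10 (0.05 to 0.16), 0.23 (0.17 to 0.29) and 0.03 (−0.01 to 0.06). With TMM scaling that of *Ccr2* was −0.0063, so it had no settled direction. *Ccl2* and *Ccl12* were higher in 5 states and lower in 3, and without the top cells *Ccl2* was higher in 4 and lower in 4. With gates read from cells thinned to 3000 UMIs, the log2 ratios of *Ccl2* and *Ccl12* over monocytes and macrophages were −0.0088 and 0.044. With the thresholds also scaled by 0.36 they were 0.064 and 0.21, so the direction for *Ccl2* depended on the gates.

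The states did not make up equal parts of the libraries. Cd300e/Clec4b1/Pparg macrophages were 157 of 2397 cells labelled wt (6.5%) and 303 of 2646 labelled cko (11.5%), and transitional cells were 7.5% and 4.8%. When each state of the library labelled cko was given its weight in the library labelled wt, the ratios were 0.50 for *Ccl6*, 0.35 for *Ccl9*, −0.86 for *Ccl8*, −0.60 for *Ccl7* and −0.51 for *Pf4*. *Ccl9* then passed 0.32, *Ccl24* at −0.27 no longer did, and no member changed direction.

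**Figure D5:**
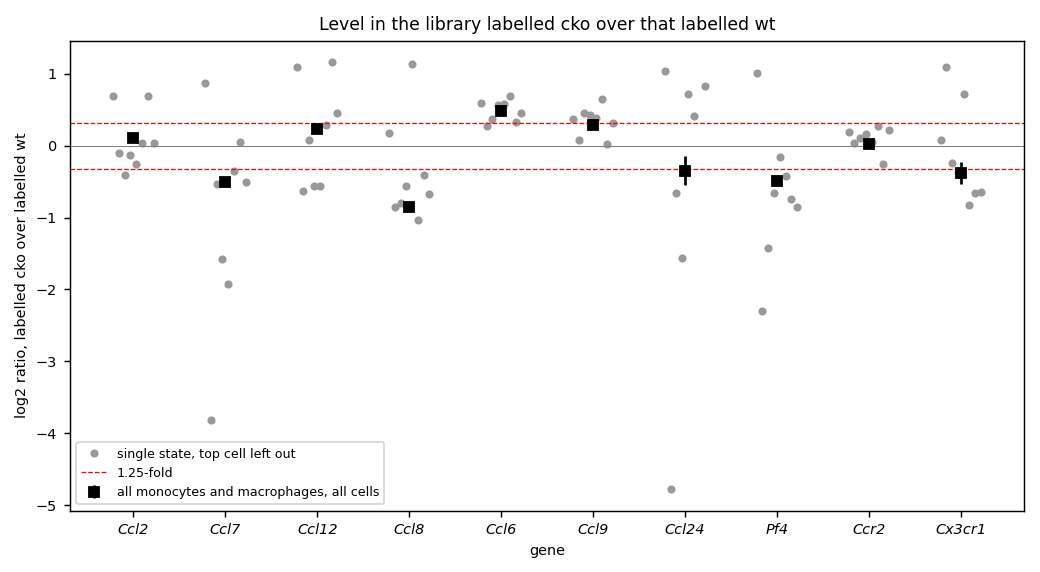
Log2 ratio of the library labelled cko over that labelled wt for each gene. Black squares are all monocytes and macrophages with 95% intervals for counting error, grey points are single states after the cell with most UMIs was left out of each library, and dashed lines mark the fold of 0.32 on the log2 scale. *Ccl6* lies above 0 in all 8 states, with 0.48 over all cells, and *Ccl8* is at −0.86 over all cells.

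Of 46 other chemokine system symbols, 18 genes had at least 100 UMIs in monocytes and macrophages. Among them 2 were higher labelled cko by at least 0.32, *Ccl3* (log2 ratio 0.56) and *Ppbp* (0.36), and 2 lower, *Cxcl2* (−0.37) and *Ccr3* (−0.65). Their median log2 ratio was −0.03. *Ccr1*, the receptor of CCL6 and CCL9, was at 433 and 456 CPM. *Ccr8*, the receptor of mouse CCL8, had 1 UMI in the monocytes and macrophages of each library.

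Of the 10 members, 6 lie in 2 groups on chromosome 11 (mm10, GENCODE vM21), and *Ccl24* and *Pf4* (chromosome 5) and *Ccr2* and *Cx3cr1* (chromosome 9) lie apart. *Ccl2* (chr11:82035571-82037453), *Ccl7* (chr11:82045712-82047525), *Ccl12* (chr11:82101845-82103400) and *Ccl8* (chr11:82115185-82116799) follow each other on the plus strand. The gaps between them are 8258, 54319 and 11784 bases. *Ccl9* (chr11:83572919-83578636) and *Ccl6* (chr11:83587882-83593087) lie on the minus strand, 9245 bases apart. Of the 25-base stretches of their transcripts, *Ccl2*, *Ccl7*, *Ccl12*, *Ccl8* and *Pf4* shared none with another gene, and *Ccl6* and *Ccl9* shared 1 with each other, so reads of these neighbours could be told apart. With any other gene, *Ccl9* shared 5.46% of its stretches, *Ccr2* 4.76%, *Cx3cr1* 3.02%, *Ccl6* 1.41% and *Ccl24* 0.62%. *Ccl2* and *Ccl6* each overlap a gene on the opposite strand (*Gm17268* and *E230016K23Rik*). *Cx3cr1* (chr9:119901616-120069879) overlaps *Gorasp1*, *Csrnp1* and *Xirp1* on its own strand, and further genes on the opposite strand. The effect of this on its UMIs was not tested.

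The neighbours *Ccl6* and *Ccl9* were both present in every state, but their order over states differed. *Ccl6* was highest in other C1q macrophages and *Ccl9* in interferon-low classical monocytes. Over all monocytes and macrophages their log2 ratios were 0.48 and 0.28, the second short of the fold used above. Their promoters are shown from RefSeq (GRCm38.p6), 5′ to 3′ on the minus strand. The sequences run from 250 bases before the start site to 50 bases after it. *Ccl6* is at chr11:83593038-83593337 and *Ccl9* at chr11:83578587-83578886. Capitals mark matches to 4 motifs searched on both strands.
Ccl6 promoter: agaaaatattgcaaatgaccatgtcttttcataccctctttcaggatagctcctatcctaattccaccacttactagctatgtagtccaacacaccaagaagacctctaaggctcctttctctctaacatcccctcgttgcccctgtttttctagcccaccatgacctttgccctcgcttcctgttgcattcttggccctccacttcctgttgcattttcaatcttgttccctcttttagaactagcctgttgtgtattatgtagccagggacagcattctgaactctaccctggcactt
Ccl9 promoter: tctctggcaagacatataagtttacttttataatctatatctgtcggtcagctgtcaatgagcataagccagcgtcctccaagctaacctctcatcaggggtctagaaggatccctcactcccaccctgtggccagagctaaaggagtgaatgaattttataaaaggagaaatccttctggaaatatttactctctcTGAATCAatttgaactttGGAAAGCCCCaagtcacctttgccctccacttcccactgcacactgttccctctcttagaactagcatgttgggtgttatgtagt
RefSeq promoters were found for 7 of the 10 members, and not for *Ccl2*, *Ccl7* and *Ccl24*. The motif of AP-1 (TGANTCA) matched once in *Ccl9*, from base −53 to −47, and is in 7.81% of 32851 promoters. That of NF-kB (GGG, then 5 bases of any kind, then CC) matched once in *Ccl9* and once in *Cx3cr1*, and is in 50.8% of promoters. The interferon motifs GAS (TTCNNNGAA) and the ISRE core (GAAA, then 2 bases of any kind, then GAAA), in 8.3% and 3.44% of promoters, matched in none of the 7. A match is a description of the letters and not a binding site.

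Because the deleted gene is a microRNA, the transcripts were searched for its seed. The mature sequence of miR-21a-5p (RefSeq, GRCm38.p6, chr11:86584120-86584141, minus strand) is shown with its seed, bases 2 to 8, in capitals, followed by the single match among the members, in the 3′ UTR of *Ccl9*, with the match in capitals.
miR-21a-5p: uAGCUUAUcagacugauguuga
Ccl9 3′ UTR: aattttttttgATAAGCTgaccattgtca
Of the 10 members only *Ccl9* held the 7 bases, starting at base 1446 of a 3′ UTR of 2465 bases, and none held the match extended to 8 bases. Over all genes with a 3′ UTR, 7.19% of 21039 held the 7 bases and 2.1% the 8.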

How the data were processed

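Counts deposited by the authors are distinct molecules (UMIs) of a gene in a called cell, not normalized, and the submitters' processing notes name Cell Ranger, Seurat and mm10. Versions are not given in the sources used here. A cell needed 200 genes and no more than 10% mitochondrial UMIs (4 and 14 removed). Scrublet's automatic threshold marked 0.136% of cells and had not worked, so the 48 and 58 highest-scoring cells were removed at 0.8% per 1000 cells. The libraries held 24492486 and 27163485 UMIs, and the shallowest cells 3184 and 3187.

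States were gated on summed UMIs of other genes. Lymphoid cells had at least 5 UMIs of *Cd3d*, *Cd3e*, *Cd3g*, *Cd79a*, *Ncr1*, *Klrb1c* and *Nkg7*, granulocytic cells 5 of *Cxcr2*, *Retnlg* and *Csf3r* with 20 of *S100a8* and *S100a9*, dendritic cells 3 of *Flt3*, *Cd209a*, *Xcr1*, *Ccr7*, *Siglech* and *Clec9a*, and tumor or stroma cells 5 of their genes. Further cuts were 5 UMIs of *Ly6c2*, 10 of *C1qa*, *C1qb* and *C1qc*, 2 of *Ace* and *Treml4*, 3 of *Vcam1* and *Folr2*, 3 of *Cd300e*, *Clec4b1* and *Pparg*, and 20 of *Isg15*, *Ifit1*, *Ifit2*, *Ifit3*, *Rsad2*, *Irf7*, *Oasl1* and *Oasl2*. The cuts were set from these markers, without the members. The 15 and 18 cells of mixed lymphoid and myeloid markers and the 81 and 79 unassigned cells entered no comparison.

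UMIs were summed per state and library. CPM has exact Poisson intervals, shares exact Clopper-Pearson intervals, and log2 ratios exact conditional binomial intervals. The last were checked on simulated Poisson counts, the model they assume, so the check does not cover spread between cells. A count of 0 was given a limit of 3 counts. All 10 members were named, and for each the 3 genes with the highest smaller r of both libraries. The members and lists were chosen with earlier results of these data known. Scaling by edgeR 4.0.16, the gates, thinning and doublets were varied. *Mir21a* was not analysed here. Tools were scanpy 1.11.5, numpy 2.4.6, scipy 1.17.1 and pandas 2.3.3.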

Additional observations from a re-analysis of the deposited data

Results flagged for a closer look

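For 8 members the ratio of the library labelled cko over that labelled wt had opposite signs in at least 2 states, each with an interval that excludes 0. The difference between states was not tested, since each state is 1 library per genotype. The intervals do not cover spread between cells. Values are log2 ratios, followed by the value without the cell with most UMIs in each library.

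*Ccl8* was lower in Vcam1/Folr2 macrophages (−1.03, then −1.04) and higher in transitional cells (1.52, then 1.14). *Ccl12* was higher in Cd300e/Clec4b1/Pparg macrophages (0.95, then 1.16) and lower in interferon-high classical monocytes (−0.89, then −0.64). *Ccl2* was higher in Cd300e/Clec4b1/Pparg macrophages (0.71, then 0.69) and lower in nonclassical monocytes (−0.52, then −0.41).

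*Ccl7* was higher in interferon-low (1.19, then 0.87) and lower in interferon-high classical monocytes (−3.40, then −3.82), the second from 315 UMIs labelled wt and 21 labelled cko. In the interferon-low state its levels without the top cells were 13.6 CPM labelled wt and 24.9 labelled cko, against 13.6 and 7.4 CPM in lymphoid cells. *Pf4* had the same pattern, with 2.37 and −4.07, and 1.01 and −2.30 without the top cells, which held 68.3% and 75.5% of its UMIs. The second ratio came from 143 UMIs labelled wt and 6 labelled cko, the latter at 7.2 CPM against 12.2 CPM in lymphoid cells. In the interferon-low state 8.0% of cells labelled wt and 6.9% labelled cko had a *Pf4* UMI at equal depth. This share was thus not higher labelled cko. *Ccl24* was higher in Vcam1/Folr2 macrophages (0.76, then 0.42), from 13 cells with a UMI in each library. There 1 cell held 37.7% of its UMIs labelled wt and 50.9% labelled cko. It was lower in interferon-high classical monocytes (−4.49, then −4.78), from 64 UMIs in 5 cells labelled wt and 2 UMIs in 2 cells labelled cko.

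*Ccr2* was higher in other C1q macrophages (0.21, then 0.21) and lower in Cd300e/Clec4b1/Pparg macrophages (−0.26, then −0.25). *Cx3cr1* was higher in transitional cells (0.85, then 0.72), from 23 and 29 UMIs, and lower in Vcam1/Folr2 macrophages (−0.78, then −0.82).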

How the results depend on the processing

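No paired analysis was possible because each genotype is 1 library. The highest state of every member stayed the same with halved or doubled gate thresholds, with means over cells and without the top cell. It changed for *Ccl2* and *Ccl6* when gates were read from cells thinned to 3000 UMIs, which left 20.7% to 77.7% of the cells of each monocyte or macrophage state in place, and not when the thresholds were also scaled by 0.36, an alternative chosen after seeing the data.

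The log2 ratio between libraries changed sign for *Ccl2*, to −0.0088 with gates on thinned cells, and for *Ccr2*, to −0.0063 with TMM scaling. Thinned gates gave −0.57 for *Ccl7*, 0.044 for *Ccl12*, −0.94 for *Ccl8*, −0.77 for *Ccl24* and −0.56 for *Pf4*. Means over cells gave 0.0084 for *Ccl2*, −0.73 for *Ccl7*, 0.057 for *Ccl12*, −0.98 for *Ccl8*, 0.52 for *Ccl6*, 0.33 for *Ccl9*, −0.59 for *Pf4* and 0.066 for *Ccr2*. Doubled thresholds gave −0.41 for *Ccl7*, 0.29 for *Ccl12* and −0.76 for *Ccl8*. TMM scaling gave 0.45 for *Ccl6* and 0.25 for *Ccl9*. With states weighted as labelled wt (settings chosen after seeing the data), thinned gates gave −0.029 for *Ccl2*, −0.66 for *Ccl7*, 0.0065 for *Ccl12*, −1.11 for *Ccl8*, −0.72 for *Ccl24* and −0.59 for *Pf4*, scaled thinned gates 0.016 for *Ccl2*, 0.097 for *Ccl12*, −1.01 for *Ccl8* and −0.61 for *Pf4*, and doubled thresholds −0.53 for *Ccl7* and 0.18 for *Ccr2*. The cause was not tested.

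Co-detection ratios at 1000 UMIs were 2.42 and 2.40 for *Ccl2* and *Ccl7*, 2.37 and 2.27 for *Ccl2* and *Ccl12*, 2.31 and 2.48 for *Ccl7* and *Ccl12*, and 1.2 and 1.21 for *Ccl6* and *Ccl9*. With all UMIs the first 3 pairs were at 1.42 and 1.40, 1.42 and 1.42, and 1.44 and 1.5. All stayed above 1. The share of all genes past the fold was 14.0% higher and 7.77% lower with at least 10 UMIs, and 1.79% and 0.717% at 1.5-fold.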
